A study of Mus musculus with 19 samples.

Results

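A set of 10 genes of the adipocytes that fill the mammary fat pad was followed in total RNA-seq of mouse mammary tissue. They are Adipoq, Lep, Retn, Cfd, Adrb3, Plin1, Lipe, Pnpla2, Pparg and Ucp1. They are named for their roles as markers of white fat, lipolysis and brown fat, and all 10 were found among the 24421 genes of each of the 19 count files. The study deleted enhancers of the casein locus in C57BL/6N mice (labelled C57BL/6) and asked what this does to milk protein genes, so that the fat genes lie outside its question. WT tissue gave 3 libraries at pregnancy day 6 (p6) and 3 at day 18 (p18). Mice without the enhancer cluster near Odam (labelled Csn_S1-4, here ΔSE) gave 4 libraries at p6 and 4 at p18. At p18 there were also 3 libraries of mice lacking an enhancer of Csn1s2b (labelled delCsn1s2b-E, here ΔCsn1s2b-E) and 2 of mice lacking the proximal enhancer of Csn3 (labelled delCsn3-PE, here ΔCsn3-PE). The mutants were made with CRISPR/Cas9 in the strain that also served as WT, and all tissue came from young adult pregnant females. The extraction notes of these last 5 libraries name WT tissue of lactation days instead, which leaves the stage of these libraries, called p18 here, in doubt.

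White adipocytes store fat in a single large droplet and release it when needed. Plin1 coats that droplet, Pnpla2 and Lipe are the lipases that cut triglyceride and then diglyceride, and Adrb3 is the catecholamine receptor that starts the process. The same cells secrete the hormones adiponectin (Adipoq), leptin (Lep) and, in mice, resistin (Retn), as well as adipsin (Cfd), a protease of the complement system. Pparg is the nuclear receptor that drives fat cell formation, and Ucp1 uncouples mitochondria in brown and beige fat. In pregnancy the fat pad is progressively filled by milk-secreting epithelium while its adipocytes shrink.

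Reads in genes ranged from 12335272 to 20525175 per library in WT and ΔSE tissue and from 26848053 to 30329601 in the single-enhancer lines. The ribosomal precursor Rn45s took 21.7 to 42.9% of the former and 0.0765 to 0.924% of the latter. These lines have no WT libraries of their own, so that their genotype and the set of libraries cannot be told apart. Csn3 ran from 276 to 1358 normalized CPM (reads scaled to a common library size) in ΔCsn3-PE tissue and from 50.1 to 146 in ΔSE tissue at p18, against 5168 to 6707 in WT tissue at p18. Csn1s2b ran from 27.8 to 51.5 CPM in ΔCsn1s2b-E tissue, which overlapped with 42.7 to 217 in WT tissue at p18. It was nevertheless lower there by edgeR, with a log2 fold change of -1.56 (SE 0.52, edgeR adjusted p = 0.0394). The defining genes of white fat were present in every library, with Adipoq between 157 and 777 CPM.

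The start regions of 9 of the 10 genes were matched to the RefSeq promoter table (GRCm38.p6), which held 12 start sites for them, while Adrb3 was not matched. The 100 bases that end just before the listed start are shown for the 3 hormones whose levels diverged from each other in the comparisons that follow. Capitals mark a match to the C/EBP pattern TTGCNNAA.
Adipoq, chr16:23146435-23146534, plus strand: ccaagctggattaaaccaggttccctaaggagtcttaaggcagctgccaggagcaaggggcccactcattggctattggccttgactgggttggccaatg
Lep, chr6:29060120-29060219, plus strand: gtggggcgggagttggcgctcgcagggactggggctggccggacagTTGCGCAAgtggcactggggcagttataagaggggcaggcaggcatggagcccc
Retn, chr8:3655669-3655768, plus strand: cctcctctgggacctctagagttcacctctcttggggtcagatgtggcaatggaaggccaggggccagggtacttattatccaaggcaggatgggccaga
The C/EBP pattern, searched on both strands of the 250 bases before each start, lay in 3 of the 12 start regions (those of Lep, Plin1 and Pparg) and in 9.56% of all 32851. The TATA box pattern TATAAA lay in 1 of the 12 (Pparg) and in 12.4% of all. The GAS pattern TTCNNNGAA, which STAT factors recognize, lay in none of the 12 and in 7.02% of all. These are matches of letters and say nothing of binding.

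Per kilobase of exon, Cfd was the most abundant of the 10 transcripts in every group of libraries and Adipoq the next. In WT tissue at p6, Cfd stood at 809 ± 81.1 CPM per kilobase (SD, n = 3) and Adipoq at 222 ± 78.5. Pnpla2 followed at 51.7 ± 16.9 and Retn at 43.9 ± 13.9, 2 means that lie within each other's SD. Plin1, Adrb3, Lipe and Lep stood between 22.2 and 28.6, an order that is within their spread. Pparg stood at 14.2 ± 3.34, and Ucp1 was the lowest on average at 13.98 ± 24.2, a mean set by 1 library. At p18 in WT tissue the first 4 places were the same, whereas Adrb3 went from sixth to ninth place, at 5.21 ± 1.40.

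The first comparison asks how fat genes change as pregnancy proceeds. In WT tissue, 4 of the 10 genes were lower at p18 than at p6 by edgeR's quasi-likelihood test at an adjusted p under 0.05 (Adrb3, Plin1, Lipe and Ucp1), where 12.4% of all 17844 genes tested were lower. In ΔSE tissue, 8 of the 10 were lower (all but Lep and Ucp1), where 18.3% of all genes were lower. Every one of these calls was of a lower level at p18. The median log2 fold change of the 10 was -0.81 in WT tissue and -1.42 in ΔSE tissue, beside -0.05 and -0.07 over all genes. Averaged over both genotypes, 9 of the 10 were lower, against 23.8% of all genes, the exception being Lep with a log2 fold change of -0.28 (SE 0.24, edgeR adjusted p = 0.357). In these bulk samples, fewer adipocytes, more RNA from other cells and less RNA of a gene per adipocyte cannot be told apart.

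**Figure D1:**
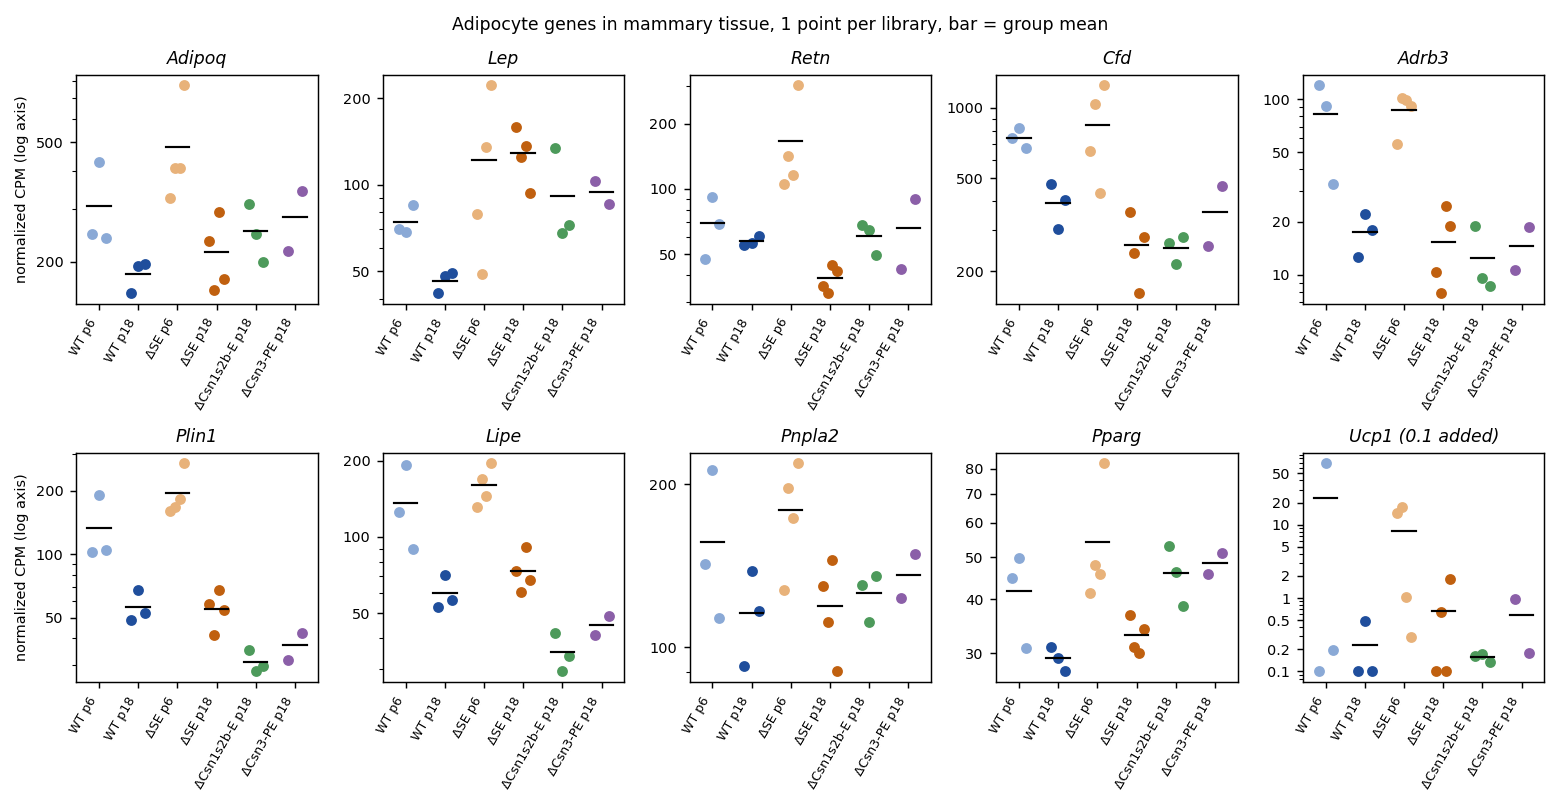
Normalized CPM of the 10 adipocyte genes on a log axis, 1 panel per gene and 1 point per library, in 6 groups of 2 to 4 libraries, with bars for the group means. In Adrb3, Plin1 and Lipe all p18 libraries of WT and ΔSE tissue lie below all p6 libraries of the same genotype, and in Lep the 4 ΔSE libraries at p18 lie above the 3 WT libraries at p18.

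Among the hormones, Adipoq read 247, 431 and 240 CPM in WT replicates 1 to 3 at p6 and 157, 194 and 196 at p18. In ΔSE tissue it read 327, 410, 411 and 777 at p6 and 234, 160, 292 and 175 at p18. All p18 libraries thus lay below all p6 libraries of their genotype, and ΔSE replicate 4 at p6 stood highest of all. The log2 fold change was -0.72 (SE 0.31, edgeR adjusted p = 0.0864) in WT tissue and -1.15 (SE 0.27, adjusted p = 0.0033) in ΔSE tissue.

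Cfd, the complement protease, read 741, 822 and 673 CPM in WT tissue at p6 and 473, 302 and 404 at p18. ΔSE tissue gave 655, 1036, 430 and 1254 at p6 and 357, 239, 161 and 280 at p18. The stages did not overlap in either genotype. Its log2 fold change was -0.90 (SE 0.34, edgeR adjusted p = 0.0549) in WT tissue, just outside the threshold, and -1.69 (SE 0.30, adjusted p = 0.000406) in ΔSE tissue. In WT tissue it passed under 8 of the 15 alternative analyses.

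Retn, which encodes resistin, read 47.7, 91.5 and 69.0 CPM in WT tissue at p6 and 54.9, 56.4 and 60.3 at p18, so that the stages overlapped. The ΔSE libraries read 106, 142, 116 and 302 at p6 and 35.6, 33.0, 44.6 and 41.6 at p18, with no overlap. The log2 fold change was -0.26 (SE 0.32, edgeR adjusted p = 0.582) in WT tissue and -2.09 (SE 0.29, adjusted p = 4.72e-05) in ΔSE tissue.

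Lep, the satiety hormone, had the smallest change with stage of the 10 when averaged over both genotypes. It read 69.9, 68.3 and 85.0 CPM in WT tissue at p6 and 41.9, 48.0 and 49.2 at p18, lower in every p18 library, with a log2 fold change of -0.66 (SE 0.37) that did not pass (edgeR adjusted p = 0.196). In ΔSE tissue it read 79.1, 49.0, 135 and 223 at p6 and 159, 125, 137 and 93.4 at p18. The ΔSE stages overlapped, with a log2 fold change of 0.09 (SE 0.32, edgeR adjusted p = 0.845).

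The receptor Adrb3 showed the largest drop among the 9 genes besides Ucp1. It read 121, 92.2 and 32.9 CPM in WT tissue at p6 and 12.7, 22.1 and 18.0 at p18. Its ΔSE values were 56.0, 101, 99.5 and 91.4 at p6 and 10.3, 7.85, 24.7 and 18.9 at p18. All p18 libraries lay below all p6 libraries in both genotypes, by a log2 fold change of -2.19 (SE 0.43, edgeR adjusted p = 0.0013) in WT tissue and -2.46 (SE 0.38, adjusted p = 0.000143) in ΔSE tissue.

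Plin1, the droplet coat, read 102, 191 and 105 CPM in WT tissue at p6 and 49.0, 67.5 and 52.5 at p18. ΔSE tissue gave 160, 167, 184 and 270 at p6 and 58.1, 41.5, 67.5 and 54.5 at p18. It fell by 1.21 (SE 0.25) on the log2 scale in WT tissue and by 1.80 (SE 0.22) in ΔSE tissue. Lipe, hormone-sensitive lipase, ran from 89.5 to 196 CPM over the 7 libraries of both genotypes at p6 and from 53.1 to 91.4 at p18. It fell by 1.15 (SE 0.24) in WT tissue and by 1.12 (SE 0.20) in ΔSE tissue, nearly the same amount. Pnpla2, the first lipase of the chain, changed less, with log2 fold changes of -0.41 (SE 0.24, edgeR adjusted p = 0.218) in WT tissue and -0.57 (SE 0.21, adjusted p = 0.0419) in ΔSE tissue. Its stages overlapped in both genotypes, and 9 of 18 alternative analyses ended its call in ΔSE tissue, among them leaving out replicate 2, 3 or 4 at p6 or replicate 1, 2 or 4 at p18. Its averaged call was lost without WT replicate 2 at p6 or replicate 1 at p18. Lipe shares its place in the genome with 4732471J01Rik on the other strand, and the sources used here do not state whether counting used strand, so that its reads may include those of that gene.

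Pparg read 44.7, 49.8 and 30.8 CPM in WT tissue at p6 and 31.1, 29.3 and 27.2 at p18, which overlapped. The ΔSE libraries read 41.4, 47.9, 45.7 and 82.4 at p6 and 36.8, 30.9, 30.05 and 34.2 at p18, which did not. The log2 fold change was -0.49 (SE 0.23, edgeR adjusted p = 0.115) in WT tissue and -0.71 (SE 0.20, adjusted p = 0.0101) in ΔSE tissue.

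**Figure D2:**
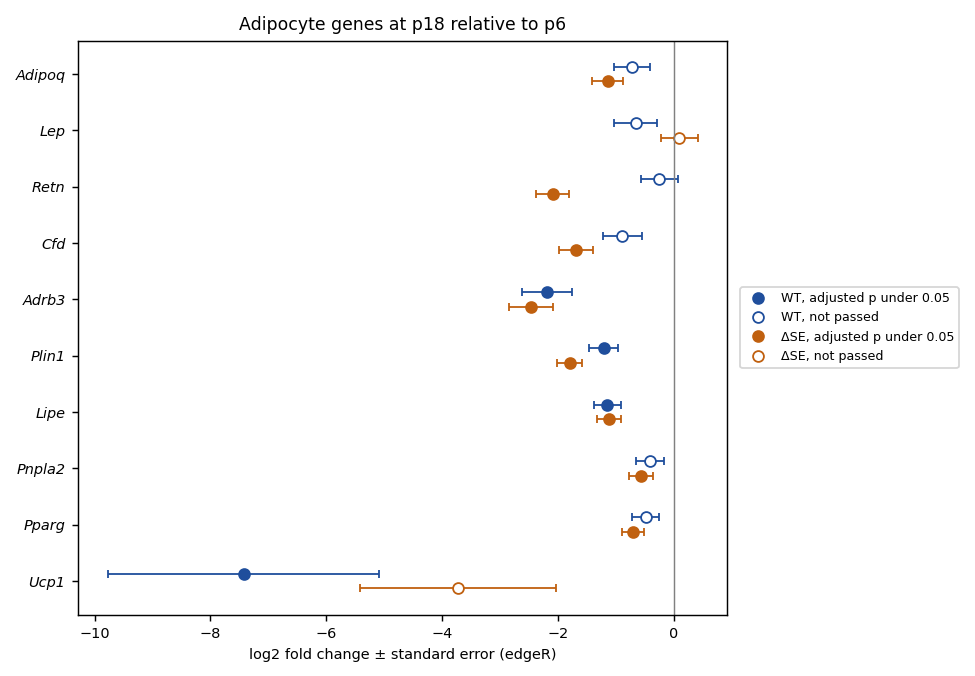
Log2 fold change of each gene at p18 relative to p6 on the x axis, with its standard error, in WT (blue, 3 against 3 libraries) and ΔSE tissue (orange, 4 against 4); filled points passed an edgeR adjusted p of 0.05. Adrb3, Plin1 and Lipe passed in both genotypes, Retn stood at -0.26 in WT and -2.09 in ΔSE tissue, and Lep passed in neither.

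Over all 14 libraries, 6 of the 10 genes had no overlap between stages in WT tissue and 7 in ΔSE tissue, each of them lower at p18, whereas 19% and 19.9% of all genes lay entirely lower. Pparg and Retn were separated in ΔSE tissue alone and Lep in WT tissue alone, but a difference between the genotypes needs its own test, given further on. Adding 1 estimated factor of unwanted variation to the model left 0 of the 10 called at either stage comparison. That factor ran from 0.130 to 0.412 in the p6 libraries and from -0.328 to -0.187 in the p18 libraries, so that it separates the stages.

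By counts of called genes, fixed lists of related genes moved the same way, with exceptions. Averaged over both genotypes, 18 of 25 white adipocyte genes were lower at p18 and 1 was higher, with a list median of -0.95 on the log2 scale. That list holds every member but Ucp1. Its summed CPM ran from 5300 to 8693 at p6 and from 6329 to 7130 at p18 in WT tissue, which overlapped. In ΔSE tissue the sum ran from 7646 to 13974 at p6 and from 5339 to 6648 at p18. Beside the members, Trarg1, a regulator of glucose transporter traffic (log2 fold change -1.46, SE 0.14), and Slc2a4, the insulin-responsive glucose transporter (-1.36, SE 0.17), were lower. The single higher gene was the fatty acid transporter Cd36 (1.43, SE 0.13), which other cell types of the gland also express.

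Of 24 lipolysis genes, 16 were lower and 3 higher. Their summed CPM was higher at p18 in WT tissue, at 1874 to 2924 at p6 and 3121 to 3866 at p18. In ΔSE tissue the sums overlapped, at 2743 to 4277 at p6 and 2964 to 3388 at p18. Adora1, an adenosine receptor that restrains lipolysis in fat cells, fell by 1.56 (SE 0.12) and the lipid droplet enzyme Pnpla3 by 2.10 (SE 0.14). Plin2, the droplet coat of many cells including milk-secreting epithelium, rose with a log2 fold change of 2.94 (SE 0.17). Of 14 adipokine genes, 7 were lower and 3 higher, with Nrg4 at -2.30 (SE 0.18), Apln at 3.45 (SE 0.31) and Nampt at 1.37 (SE 0.13). Of 7 adipokine receptor genes, 3 were lower and 2 higher, among them the adiponectin receptors Adipor2 at -0.69 (SE 0.14) and Adipor1 at 0.61 (SE 0.08). These 2 receptors of 1 hormone thus moved in opposite directions.

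Of 16 factors of fat cell formation, 8 were lower and 4 higher. Mlxipl, which encodes the carbohydrate-responsive factor ChREBP, was lower with a log2 fold change of -2.41 (SE 0.20), Ebf1 with -1.09 (SE 0.15) and Ebf2 with -1.05 (SE 0.11). Of 11 preadipocyte genes, 4 were lower and 1 higher. The higher one was Cd24a (1.98, SE 0.15), which epithelium also expresses, and Pdgfra fell by 0.83 (SE 0.15) and Pdgfrb by 0.80 (SE 0.09). The share of all genes that were lower in this averaged comparison was 23.8% and the share that were higher 23.6%. The lists share genes with each other and with the members. They were chosen with results of these data known, so that their counts are descriptions.

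Other cell types changed in the same samples. Of 13 epithelial genes, 7 were higher and 2 lower, with Elf5 at 3.15 (SE 0.26), and all 13 milk protein genes were higher. Summed milk protein transcripts ran from 412 to 5577 CPM at p6 and from 42308 to 128052 CPM at p18. Skeletal muscle markers, all 14 lower on average, summed to 1755 to 3018 CPM in WT tissue at p6 and to 12.5, 1298 and 1941 in WT replicates 1 to 3 at p18. They summed to 76.9, 3821, 175 and 4519 CPM in ΔSE tissue at p6 and to 13.8 to 26.8 at p18, so that muscle transcripts were lower in every p18 library than in every p6 library of its genotype, except WT replicate 3 at p18, which lay above WT replicate 1 at p6. Fibroblast markers summed to 1265, 11740 and 4821 CPM in WT tissue at p6, to 12518 to 15765 in ΔSE tissue at p6 and to 3869 to 7458 in both genotypes at p18. Of the 8 fibroblast markers 3 were lower, of 11 macrophage, 13 lymphocyte and 8 endothelial markers 4 each were lower, and of 8 nerve and Schwann cell markers 6 were lower and 1 higher. The part of these cell types in the fat gene results was not tested. The 2 ΔSE libraries at p6 that held over 1000 CPM of muscle transcripts were then left out. Of the 10 genes, 6 were still lower in ΔSE tissue at p18, and Pnpla2 and Pparg no longer passed. This alternative was chosen after the data were examined, and the share of all genes lower under it is not given here.

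Whether fat genes fell together was then examined as the number of reads of each gene per Adipoq read of the same library, a ratio free of any scaling between libraries. Over both genotypes, 4 of the other 9 genes changed relative to Adipoq between the stages at an unadjusted p under 0.05 (exact two-sided permutation test over 1400 arrangements within genotype, smallest possible p = 0.00143). Adrb3 fell by 1.42 and Plin1 by 0.59 on the log2 scale relative to Adipoq, and Pnpla2 rose by 0.42, each with permutation p = 0.00143. Lep rose by 0.71 (permutation p = 0.0329), which no longer passed without WT replicate 2 at p6 (permutation p = 0.0986) or without WT replicate 1 or ΔSE replicate 1, 2 or 4 at p18. The other 5 did not pass. Adipoq itself was lower at p18, so that a gene unchanged between the stages would rise relative to it. The same test was not run over all genes, so that this count is not a result particular to fat genes.

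Adrb3 gave 0.489, 0.214 and 0.137 reads per Adipoq read in WT tissue at p6 and 0.0807, 0.114 and 0.0918 at p18. In ΔSE tissue it gave 0.171, 0.247, 0.242 and 0.118 at p6 and 0.0441, 0.0489, 0.0848 and 0.108 at p18. The stages did not overlap in either genotype. Pnpla2 gave 0.472 to 0.577 reads per Adipoq read in WT tissue at p6 and 0.590 to 0.712 at p18. In ΔSE tissue Pnpla2 gave 0.281 to 0.481 at p6 and 0.497 to 0.695 at p18, again with no overlap.

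The hormones diverged in ΔSE tissue. Lep gave 0.242, 0.119, 0.329 and 0.286 reads per Adipoq read at p6 and 0.680, 0.778, 0.469 and 0.533 at p18, a rise of 1.40 on the log2 scale (exact permutation p = 0.0286, the smallest possible with 4 against 4). Retn gave 0.323, 0.347, 0.281 and 0.389 at p6 and 0.152, 0.205, 0.153 and 0.237 at p18, a fall of 0.86 (exact permutation p = 0.0286) that no longer passed without ΔSE replicate 2 or 4 at p6 (exact permutation p = 0.0571 in each case) or relative to Plin1. In WT tissue Lep gave 0.158 to 0.354 at p6, a range that held the p18 values of 0.247 to 0.267. Retn gave 0.193 to 0.288 in WT tissue at p6 and 0.290 to 0.350 at p18, the opposite direction to ΔSE tissue, with a difference of 0.47 (exact permutation p = 0.1, the smallest that 3 against 3 allows). With 5 of 9 ratios past the threshold in ΔSE tissue and 0 of 9 able to pass it in WT tissue, the counts of the genotypes are not comparable. Left unadjusted, 9 such tests were made per comparison, with no share of all genes to set beside them.

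**Figure D3:**
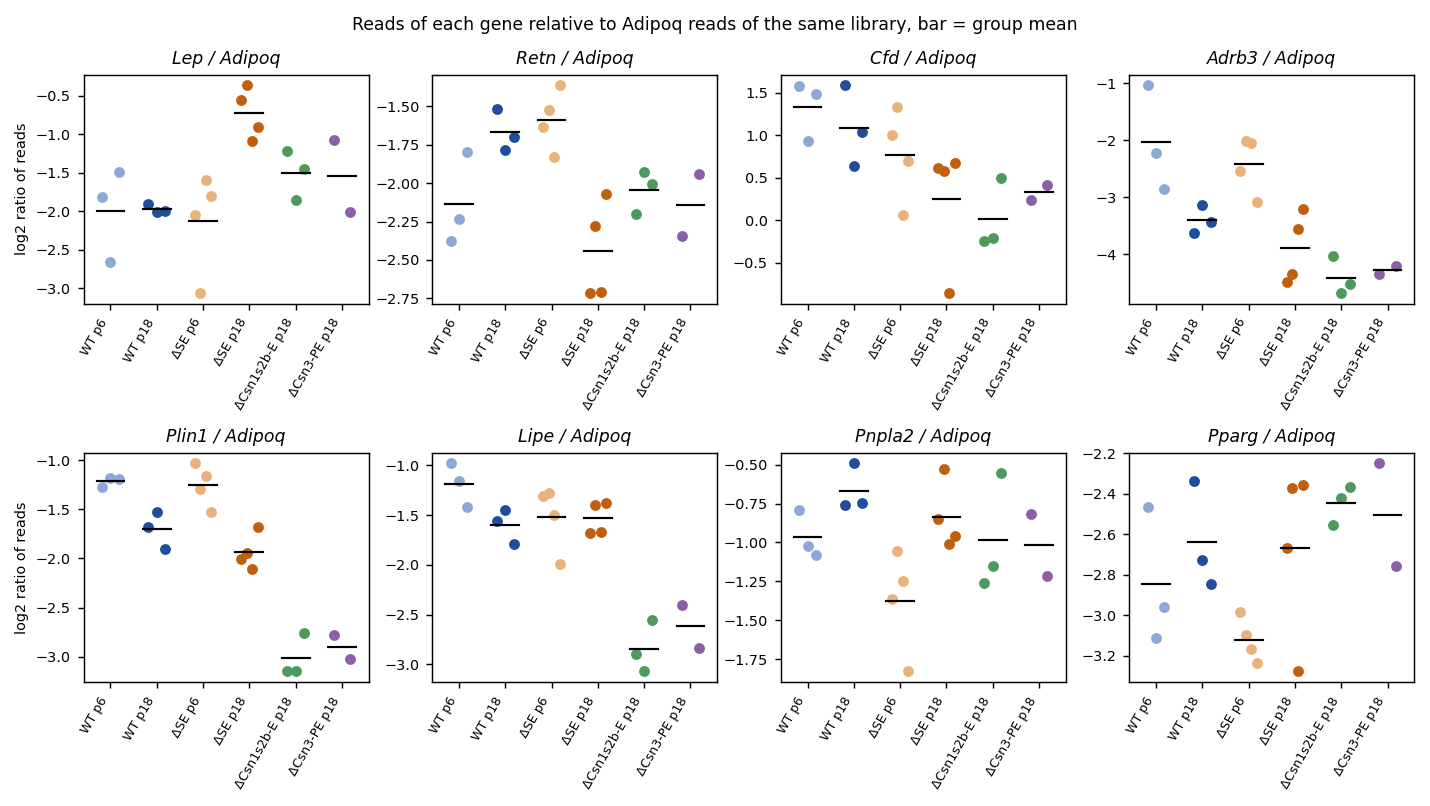
Log2 of the reads of each gene per Adipoq read of the same library on the y axis, 1 point per library in 6 groups, with bars for group means. Adrb3 and Plin1 fall and Pnpla2 rises from p6 to p18 without overlap in WT and in ΔSE tissue, whereas Lep rises and Retn falls in ΔSE tissue.

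Ucp1 differed most between libraries of 1 group. It had 68.5 CPM (1325 reads) in WT replicate 2 at p6, 0.0955 CPM (2 reads) in replicate 3 and 0 reads in replicate 1, which allows up to 0.237 CPM at a floor of 3 reads. In ΔSE tissue at p6 it had 14.3, 17.4, 0.949 and 0.198 CPM (253, 332, 12 and 4 reads). At p18 it had at most 0.390 CPM in WT tissue and at most 1.74 in ΔSE tissue, with 0 reads in 4 of the 7 libraries. Its log2 fold change from p6 to p18 was -7.43 (SE 2.34, edgeR adjusted p = 0.0246) in WT tissue, and without WT replicate 2 at p6 it was 0.99 (SE 3.21, adjusted p = 0.854). In ΔSE tissue it was -3.73 (SE 1.68, adjusted p = 0.097). The WT call was lost without that library and also without any one of the 3 WT libraries at p18, and the averaged call was lost without that library.

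That library also stood highest of the 7 p6 libraries in 9 of the 17 other brown fat genes. These were Cidea, Elovl3, Cox7a1, Cox8b, Otop1, Cpt1b, Letmd1, Ppara and Acot11, named after their values were seen. The library was picked by its Ucp1, and the share of all genes highest in it was not computed. Of the others, likewise named after their values were seen, Ppargc1a and Kcnk3 had the library at rank 2. Prdm16, Ebf2, Ucp3 and Gk had it at rank 4, and Dio2 at rank 5 (7.55 CPM, against a median of 14.5 in the other libraries). Cidea, a lipid droplet protein, read 39.2 CPM there and 1.58 to 15.1 in the other 6, and Acot11, a thioesterase of thermogenic fat, 21.6 against 2.67 to 11.4. Ppara, the receptor that directs fat burning, read 22.3 against 5.39 to 14.6. Zic1, a marker of classical brown fat, had 0 CPM there and at most 1.15 in the others. Between the stages, 11 of 18 brown fat genes were lower at p18 on average and 2 higher. The summed CPM of this list overlapped between the stages in both genotypes. It ran from 90.0 to 306 at p6 and from 198 to 340 at p18 in WT tissue. In ΔSE tissue it ran from 117 to 214 at p6 and from 145 to 175 at p18. The potassium channel Kcnk3 fell by 2.62 (SE 0.28) and glycerol kinase Gk was higher by 2.79 (SE 0.17). Cidea itself was not lower at p18, where it ran from 6.44 to 81.3 CPM over both genotypes, so that it did not follow Ucp1 across the stages.

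**Figure D4:**
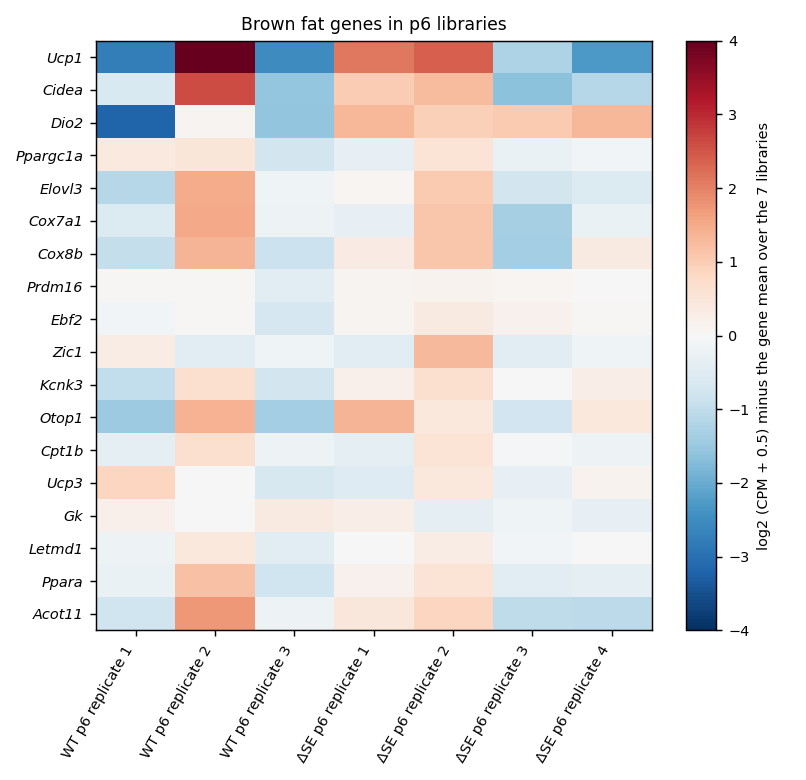
Brown fat genes (rows) in the 7 libraries at p6 (columns), coloured by log2 (CPM + 0.5) minus the mean of the gene over these libraries. WT replicate 2, picked by its Ucp1, is highest for Ucp1 and 9 of the other 17 genes. The share of all genes highest in it was not computed. ΔSE replicates 1 and 2 have the next highest Ucp1.

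The comparison of ΔSE with WT tissue asks whether the deletion in the casein locus went with a change in fat genes. At p18, 0 of the 10 genes passed, where 0.314% of all genes did. 1 of the 10 had an unadjusted p under 0.05 and 1 passed with DESeq2, in both cases Lep. Lep read 159, 125, 137 and 93.4 CPM in ΔSE tissue and 41.9, 48.0 and 49.2 in WT tissue, so that every ΔSE library lay above every WT library. Its log2 fold change was 1.48 (SE 0.36, edgeR adjusted p = 0.0879), and with these 7 libraries alone in the model edgeR called it. Retn lay entirely lower in ΔSE tissue at p18, by a log2 difference of -0.55 (SE 0.30, adjusted p = 0.462). Entirely separated genes made up 5% (higher) and 10.1% (lower) of all genes in this comparison. The other 8 overlapped, with log2 fold changes between -0.60 and 0.29 apart from Ucp1 at 2.24 (SE 3.11).

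At p6, 0 of the 10 passed between ΔSE and WT tissue, where 1.03% of all genes did; 3 of the 10 had an unadjusted p under 0.05 (Adipoq, Retn and Plin1) and 1 passed with DESeq2. Retn, at 106 to 302 CPM in ΔSE and 47.7 to 91.5 in WT tissue, was the only member without overlap (5.99% of all genes lay entirely higher), with a log2 fold change of 1.28 (SE 0.31, edgeR adjusted p = 0.0551). Without WT replicate 2, the library rich in Ucp1, 4 of the 10 passed (Adipoq, Retn, Plin1 and Ucp1), each higher in ΔSE tissue. No share of all genes is set beside this count, so that it cannot be read as particular to fat genes. Of the adipokine list Retnla passed at p6 (1.45, edgeR adjusted p = 0.0273) and of the lipolysis list Npr3, a clearance receptor for natriuretic peptides, at p18 (1.45, adjusted p = 0.0374). At p6 the fibroblast markers given earlier also summed higher in each ΔSE library than in each WT library. Of 13 milk protein genes 6 were lower in ΔSE tissue at p6, and of 13 epithelial genes 1 was lower. Of 11 preadipocyte genes 2 were higher. The part of these cell types in the result was not tested.

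The test of the difference itself, the interaction of genotype and stage, called 0 of the 10 genes, where 0.151% of all genes were called. 1 had an unadjusted p under 0.05 and 1 passed with DESeq2, in both cases Retn. Its stage change was lower in ΔSE than in WT tissue by 1.83 on the log2 scale (-1.83, SE 0.42, edgeR adjusted p = 0.0734). It passed without WT replicate 2 at p6. For Lep the difference of stage changes was 0.75 (SE 0.49, adjusted p = 0.456), and for Lipe it was 0.03 (SE 0.31, adjusted p = 0.975).

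Finally, the single-enhancer lines were set beside WT tissue at p18. In ΔCsn1s2b-E tissue, 5 of the 10 genes passed, where 32.3% of all 17125 genes tested did, and in ΔCsn3-PE tissue 3 passed, where 25.2% did. Both comparisons share the 3 WT libraries, and the set of libraries cannot be told apart from the genotype in either. Lep and Pparg were higher and Plin1 was lower in both lines, and Lipe and Cfd were also lower in ΔCsn1s2b-E tissue. Of all genes, 17.2% were called higher and 15% lower in ΔCsn1s2b-E tissue, and 13.8% and 11.5% in ΔCsn3-PE tissue. Without overlap with WT tissue, 3 of the 10 lay higher and 3 lower in ΔCsn1s2b-E tissue (27.9% and 19% of all genes), and 3 and 2 in ΔCsn3-PE tissue (30.3% and 21.9%). The shares among the 10 genes were thus near those of all genes or moderately above them.

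Lep read 134, 68.1 and 72.6 CPM in ΔCsn1s2b-E and 103 and 85.9 in ΔCsn3-PE tissue, all above the WT libraries at 41.9 to 49.2. The log2 fold changes of Lep were 0.92 (SE 0.24, edgeR adjusted p = 0.0131) and 0.97 (SE 0.26, adjusted p = 0.0206). Plin1 read 35.2, 27.9 and 29.5 CPM and 31.6 and 42.5 CPM in the 2 lines, all below the WT libraries at 49.0 to 67.5. It fell by 0.93 (SE 0.17) and by 0.66 (SE 0.19) on the log2 scale. Lipe read 29.4 to 41.8 CPM in ΔCsn1s2b-E tissue, with a log2 fold change of -0.84 (SE 0.16), and 41.1 and 48.5 CPM in ΔCsn3-PE tissue, with -0.48 (SE 0.18, edgeR adjusted p = 0.0793). Pparg read 38.6 to 53.2 CPM and 45.7 and 51.1 CPM, against 27.2 to 31.1 in WT tissue, with log2 fold changes of 0.59 (SE 0.14) and 0.67 (SE 0.15). Not all droplet coat genes were lower: Plin4 was higher in both lines, with log2 fold changes of 0.53 (SE 0.18, edgeR adjusted p = 0.0471) and 0.64 (SE 0.20, adjusted p = 0.0391), a gene named after its values were seen.

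Scaling by library totals alone moved the median over all genes from near 0 to 0.40 and 0.42 (log2) in these comparisons. It then left 3 of the 10 higher and 0 lower in each line. The lower calls of Plin1, Lipe and Cfd thus depend on the scaling, while Lep and Pparg were called higher under both. Library totals include Rn45s, which took 29.7 to 33.4% of reads in WT tissue at p18 and at most 0.924% in these lines. The part of Rn45s in the shift of the median was not tested. In ΔCsn1s2b-E tissue the call of Cfd was lost without WT replicate 1 or 3 or any one of the 3 mutant libraries, and that of Lep without WT replicate 1. The calls in ΔCsn3-PE tissue rest on 2 libraries. That of Plin1 was lost without WT replicate 2 or ΔCsn3-PE replicate 1, that of Lep without any one WT library or without ΔCsn3-PE replicate 1, and that of Pparg without ΔCsn3-PE replicate 2. Between the 2 single-enhancer lines, 0 of the 10 passed, where 0.181% of all genes did; 1, Ucp1, had an unadjusted p under 0.05 and 0 passed with DESeq2. Summed milk protein transcripts, at 157655 to 325334 CPM in these lines, lay above the 93553 to 128052 of WT tissue at p18. Fibroblast markers summed to 3103 to 4181 CPM in ΔCsn1s2b-E and to 2611 and 3589 CPM in ΔCsn3-PE tissue, below the 5706 to 7458 of WT tissue, and 4 of the 8 were called lower in each line. Of 11 macrophage markers 5 were lower in ΔCsn1s2b-E tissue, and of 8 endothelial markers 2 were lower in ΔCsn1s2b-E and 4 in ΔCsn3-PE tissue. Of 13 epithelial markers 4 were lower in ΔCsn1s2b-E tissue, and 1 was lower and 1 higher in ΔCsn3-PE tissue. The part of these cell types in the differences was not tested.

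**Figure D5:**
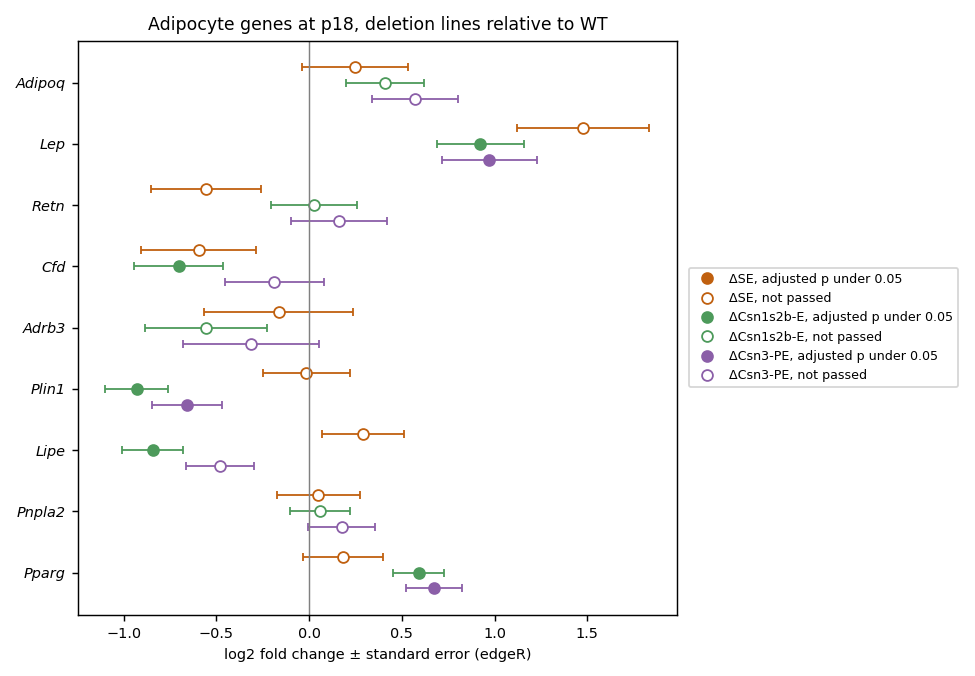
Log2 fold change of 9 genes (Ucp1, with few reads, is left out) in 3 deletion lines relative to WT tissue at p18, with standard errors; filled points passed an edgeR adjusted p of 0.05. Lep lies above 0 in all 3 lines (1.48, 0.92 and 0.97), which share the WT libraries, and Plin1 lies below 0 in ΔCsn1s2b-E and ΔCsn3-PE tissue and at -0.02 in ΔSE tissue.

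Across the 14 WT and ΔSE libraries, the gene whose log2 level was most like that of Adipoq, of 10462 ranked, was Car3, carbonic anhydrase 3 of fat and muscle (Pearson r = 0.986). Abcd2, a peroxisomal transporter of fatty acids (0.967), Ccdc80 (0.963), Fgfrl1 (0.959) and Amy1 (0.957) followed. Among the members, r with Adipoq was highest for Plin1 (0.932) and Lipe (0.923) and lowest for Lep (0.436) and Ucp1 (0.399). The libraries share stage, genotype and scaling, so that these are descriptions. The genes most like Ucp1 were Ppara (0.895), Atp2b1 (0.840), Cbfa2t2 (0.831), Dsp (0.824) and Smad5 (0.817), an order to which the 1 library rich in Ucp1 contributes.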

How the data were processed

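Total RNA of mammary tissue was depleted of ribosomal RNA and sequenced as stranded paired-end libraries. Per the labels, the authors trimmed reads with Trimmomatic, aligned them to mm10 with STAR and, where stated, counted them with HTSeq. The deposited values are read counts per gene, not normalized. Entries that name no gene occurred in the files of the 5 single-enhancer libraries alone, made up 23.5 to 30.6% of them and were left out.

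The quasi-likelihood test of edgeR (version 4.0.16, under R version 4.3.3) was run on TMM-scaled libraries after genes with fewer than 10 reads over a model's libraries had been dropped. The p-values were adjusted by Benjamini-Hochberg over all genes, with a threshold of 0.05. One model of 4 groups held 14 libraries (17844 genes) and another of 3 groups held 8 libraries at p18 (17125 genes). Levels are CPM on TMM scales over all 19 libraries. Ratios to Adipoq used reads with 0.5 added. The labels do not say that replicates are separate animals, whereas the paper describes independent biological replicates. Alternatives were DESeq2 (version 1.42.0), other scalings and filters, 1 factor of unwanted variation (all but 5000 genes as controls), the replicate number as a block, fewer groups, and each library left out. The models were tested on simulated data with 200 changed genes. For WT tissue across the stages, 8 of 157 edgeR calls and 27 of 193 DESeq2 calls were false. For ΔCsn1s2b-E against WT tissue, 10 of 163 and 21 of 185 were false. A call by DESeq2 alone is thus less secure. Coordinates are those of GENCODE M21 (GRCm38). No 2 libraries of a group agreed within counting noise (chi-square per gene 7.93 to 127). Counting floors of 3 reads cover counting error only.

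The genes named are the 10 members, up to 3 further genes per list, taken by smallest p from the genes that passed, the 5 genes most like Adipoq and Ucp1, and genes whose naming after seeing their values is stated. The members and lists were chosen with earlier results of these data known. The white adipocyte, lipolysis, adipokine, adipokine receptor, adipogenic factor, preadipocyte, brown fat, epithelium, milk protein, skeletal muscle, fibroblast, macrophage, lymphocyte, endothelium and nerve lists are reported by their counts, with only some members named.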

Additional observations from a re-analysis of the deposited data

Results flagged for a closer look

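In groups of 4 libraries, 2 of 38 sets of values held 1 library far from the others, where chance alone gives about 1 in 20. Pparg stood at 82.4 CPM in ΔSE replicate 4 at p6, with 47.9 CPM as the nearest of the other 3. This library also had the highest Adipoq, Lep, Retn, Cfd and Plin1 of the ΔSE libraries at p6, and without it Pparg kept its call in ΔSE tissue at p18 against p6. The log2 ratio of Cfd to Adipoq was -0.86 in ΔSE replicate 3 at p18, with 0.57 as the nearest of the others. Cfd had 161 CPM and Adipoq 292 CPM in that library, the lowest and the highest of the group.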

How the results depend on the processing

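Of 186 recomputed counts of called genes, 165 stayed within 1.5 times of the reported count. Scaling by library totals alone, which include the reads of Rn45s, gave 8 called genes in WT tissue at p18 against p6 and 3 in ΔCsn1s2b-E tissue. It moved the median of all genes to -0.42 (WT), -0.65 (ΔSE) and -0.55 (average) between the stages. Of all genes it called 763 higher and 3663 lower in WT tissue (3068 and 2211 with TMM), 628 and 7969 in ΔSE tissue (3083 and 3265), 989 and 8566 averaged (4216 and 4240), 5444 and 874 in ΔCsn1s2b-E tissue (2950 and 2576) and 5103 and 627 in ΔCsn3-PE tissue (2355 and 1968). DESeq2 called 1 member each in ΔSE against WT tissue at p18 and p6 and in the interaction, and 496, 908 and 584 genes in all, where edgeR called 56, 183 and 27. No filter gave 1 member at p6, for which the share of all genes is not given. Only the groups compared gave 2 members at p18 (Lep and Retn), with 824 genes in all.

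With 1 factor of unwanted variation 0 members passed in WT, ΔSE and averaged stage comparisons and in ΔCsn3-PE tissue. Called log2 fold changes then turned positive in WT tissue for Adrb3 (0.18) and Lipe (0.0376), in ΔSE tissue for Adipoq (0.57), Adrb3 (0.34), Lipe (0.32), Pnpla2 (0.88) and Pparg (0.20), and on average for Adipoq (0.62), Retn (0.29), Adrb3 (0.26), Lipe (0.18), Pnpla2 (0.83) and Pparg (0.22). The factor separates p6 from p18. Relative to Plin1 in place of Adipoq, Lipe rose by 0.67 in ΔSE tissue and by 0.37 over both genotypes.

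Leaving out 1 library moved Ucp1 between -11.50 and 0.99 in WT tissue across the stages and between -2.14 and 6.95 in ΔSE against WT tissue at p6, both upper values without WT replicate 2 at p6. It gave 0 to 4 members in ΔSE against WT tissue at p6, 0 to 1 in the interaction, 3 to 5 in ΔCsn1s2b-E tissue (3 without WT replicate 1), 1 to 2 in ΔCsn3-PE tissue (1 without WT replicate 2) and 3 to 4 ratios to Adipoq in ΔSE tissue. The cause of these changes was not tested. Shares of all genes are not set beside these counts, so that they describe the processing and are not results particular to fat genes.

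With the replicate block, 5 members passed in WT tissue, 7 in ΔSE tissue and 9 on average, 4 in ΔCsn1s2b-E tissue and 0 in ΔCsn3-PE tissue. Shares of all genes under the block are not given here, so that these counts are not results particular to fat genes. The replicate numbers share no stated animal or day. Deviations of same-numbered libraries correlated with r of 0.0706 to 0.209 in WT tissue and -0.117 to 0.239 in ΔSE tissue across the stages. Not every library correlated best with its own number. With so few libraries a group, these values cannot settle whether the numbers pair the samples.

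With 2 to 4 libraries a group, differences such as those of Lep and Retn between ΔSE and WT tissue, near the threshold, stay undecided here. Ucp1 at p18 lay at or under the counting floor in most libraries.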
